A study of Mus musculus with 3 samples.

Results

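The S100 proteins are small calcium-binding proteins, and 10 of their genes, S100b, S100a1, S100a4, S100a6, S100a8, S100a9, S100a10, S100a11, S100a13 and S100a16, are described here in LepR+ cells of the mouse superior cervical ganglion, the uppermost ganglion of the sympathetic chain. The rule names the 10 genes by symbol, but they were chosen with earlier results of these data known. All 10 were among the 52550 genes of the deposited table. RNA was measured in 1 group of 3 libraries, labelled biological replicates of LepR+ cells from male mice with the genotype LepRCRE::Ai32, aged 10 weeks. In this line Lepr, the leptin receptor gene, drives Cre recombinase, and Cre switches on Ai32, a reporter carrying yellow fluorescent protein, so the sort collected live cells in which Cre was or had been active, of whatever type. The sources used here do not say how many cells or animals made a library. With no second group, each gene was set against a fixed level of 1 TPM (a unit that divides the reads of a gene by its length and scales all genes of a library to the same sum), and the genes were compared with each other and with lists of their partners.

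Each S100 protein carries a pair of EF-hands, the helix-loop-helix fold that holds a calcium ion. Most work as dimers that open on binding calcium and then dock onto a target protein, and several are also released from cells and act on receptors such as RAGE (Ager) and TLR4. In peripheral ganglia S100b is a marker of satellite glia and Schwann cells, whereas S100a8 and S100a9 are abundant in neutrophils and monocytes and S100a4 in fibroblasts and macrophages.

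Reads could be recovered for each of the 10 genes, and reads on all genes with a matched length came to 7299728, 7076883 and 6778130 in replicates 1, 2 and 3. The levels of Lepr were 363, 32.1 and 54.0 TPM. In the title of the series the cells are perineurial, a cell type that wraps nerve. Of 10 perineurial markers 4 lay above 1 TPM, Cldn1, Sfrp5, Ptch1 and Tjp1, where 16.3% of all genes tested did. The 10 markers summed to 467 to 769 TPM over the libraries. Cldn1 had 216, 246 and 220 TPM in replicates 1, 2 and 3, and Krt19 had no read. The other 5 were called neither way (limma) and were uneven, each highest in replicate 2. Itgb4 had 0.851, 32.1 and 1.15 TPM, Slc2a1 1.59, 34.0 and 0.507 TPM, and Wnt6 3.62, 59.6 and 1.19 TPM. Lypd2 had 4.76, 93.4 and 30.3 TPM, and Moxd1 had 0, 385 and 289 reads. Of 12 satellite glial and Schwann markers 10 lay above 1 TPM, and the 12 summed to 23179 to 28378 TPM. Fabp7 alone had 13012 to 16339 TPM of this. Foxd3 (51, 78 and 1 reads) and Gfap (30, 0 and 1 reads) were called neither way (limma). Among those above, Kcnj10 was uneven, at 56.6, 289 and 17.9 TPM. Of 8 fibroblast markers 5 lay above, and they summed to 4463 to 6613 TPM. In bulk RNA, fewer cells of a type and less RNA per cell cannot be told apart, so these sums are not shares of cells.

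The genes lie in separate stretches of the genome (build GRCm38). S100b stands alone on chromosome 10 (76253853 to 76261159, forward strand). The other 9 lie on chromosome 3 between 90511034 and 93564643, and among them S100a1 (90511034 to 90514392, reverse strand) and S100a13 (90514435 to 90524581, forward strand) are divergent neighbours with 42 bases between them. The RefSeq promoter table of GRCm38.p6, with 250 bases before and 50 after each annotated start, had windows for 9 of the 10 genes, all but S100a10. Windows of 6 genes are printed, since they differ in the motifs they hold and the genes cover the whole range of levels. They are those of S100b (chr10:76253586-76253885, forward), S100a1 (chr3:90514281-90514580, reverse), S100a11 (chr3:93520246-93520545, forward), S100a4 (chr3:90603520-90603819, forward), S100a9 (chr3:90695672-90695971, reverse) and S100a8 (chr3:90668821-90669120, forward). Capitals mark the TATA box letters TATAAA, the CCAAT box and the AP-1 motif TGANTCA, each on either strand, and no 2 of these overlap.
S100b: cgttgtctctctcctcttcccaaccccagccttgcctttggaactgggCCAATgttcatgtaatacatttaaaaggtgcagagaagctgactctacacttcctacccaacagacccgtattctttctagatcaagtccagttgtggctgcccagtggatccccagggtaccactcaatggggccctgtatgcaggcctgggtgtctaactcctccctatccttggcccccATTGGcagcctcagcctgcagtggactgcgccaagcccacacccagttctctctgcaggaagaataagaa
S100a1: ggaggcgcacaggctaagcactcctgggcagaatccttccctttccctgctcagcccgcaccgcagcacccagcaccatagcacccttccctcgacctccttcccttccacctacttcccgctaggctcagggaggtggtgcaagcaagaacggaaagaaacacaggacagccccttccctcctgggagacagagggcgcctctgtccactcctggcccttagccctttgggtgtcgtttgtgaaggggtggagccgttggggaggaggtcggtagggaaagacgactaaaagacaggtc
S100a11: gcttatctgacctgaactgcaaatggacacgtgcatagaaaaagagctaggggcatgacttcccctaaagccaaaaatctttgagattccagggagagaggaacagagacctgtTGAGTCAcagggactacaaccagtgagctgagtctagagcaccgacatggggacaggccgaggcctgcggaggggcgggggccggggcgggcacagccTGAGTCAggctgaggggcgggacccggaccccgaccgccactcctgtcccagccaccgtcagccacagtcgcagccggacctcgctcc
S100a4: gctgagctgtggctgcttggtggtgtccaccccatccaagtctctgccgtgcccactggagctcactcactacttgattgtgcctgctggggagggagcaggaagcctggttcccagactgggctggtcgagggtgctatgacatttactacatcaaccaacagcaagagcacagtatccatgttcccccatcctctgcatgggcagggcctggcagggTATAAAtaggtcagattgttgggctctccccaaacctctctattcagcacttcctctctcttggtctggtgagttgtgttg
S100a9: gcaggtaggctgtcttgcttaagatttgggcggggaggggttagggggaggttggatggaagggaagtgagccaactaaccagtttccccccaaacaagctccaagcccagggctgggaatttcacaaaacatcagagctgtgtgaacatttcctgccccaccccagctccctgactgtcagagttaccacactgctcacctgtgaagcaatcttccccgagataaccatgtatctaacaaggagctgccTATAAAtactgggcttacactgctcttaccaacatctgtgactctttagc
S100a8: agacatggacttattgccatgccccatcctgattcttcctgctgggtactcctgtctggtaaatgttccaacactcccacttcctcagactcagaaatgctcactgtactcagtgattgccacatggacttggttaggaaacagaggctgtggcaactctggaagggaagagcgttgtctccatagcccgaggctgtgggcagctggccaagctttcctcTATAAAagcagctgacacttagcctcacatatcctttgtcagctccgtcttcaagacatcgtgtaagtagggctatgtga
TATAAA was present in the windows of S100a4, S100a8 and S100a9 and in no window of S100b, S100a1, S100a6, S100a11, S100a13 or S100a16. It was in 13.6% of all 32851 windows. It began 31 bases before the start of S100a4 and 30 bases before that of S100a8, and at the annotated start itself in S100a9. CCAAT occurred at 2 places in the S100b window and at 1 in that of S100a6, and was in 37.4% of all windows. TGANTCA occurred at 2 places in the S100a11 window and at 1 in the second of 2 windows of S100a16, and was in 7.81% of all windows. The S100a11 window held 15 CG dinucleotides, those of S100a13 and S100a1 held 14 and 11, that of S100a6 held 6, the pair of S100a16 windows held 2 and 4, and those of S100a8, S100b, S100a4 and S100a9 held 4, 3, 2 and 2, against a median of 7 over all windows. Both high and low genes were thus among those with few CG. The windows of S100a1 and S100a13 share 204 bases, and 104 bases separate their RefSeq starts. These motifs were chosen after the sequences and levels had been seen, and a match is a string of letters and not a shown binding site.

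By mean level the 10 genes are described as an upper set of 3, a middle set of 4 and a low set of 3. The upper and middle sets are not cleanly apart, since the ranges of S100a16 and S100a10 overlapped. S100b, S100a1 and S100a16 averaged 418 to 551 TPM, S100a10, S100a6, S100a13 and S100a11 averaged 85.4 to 170.3 TPM, and S100a4, S100a9 and S100a8 averaged 4.96 TPM or less. Against 1 TPM, limma called 8 of the 10 genes above and 0 below (7 of the 8 with adjusted p from 0.00337 to 0.0120, S100a4 with adjusted p = 0.0485), where 16.3% of all 27402 genes tested were called above and 14.1% below. No member was below 1 TPM at an unadjusted p under 0.05 either. The median of the 10 genes was 7.05 in log2(TPM + 1), against 0.89 over all genes tested. These calls rest on all 3 libraries. Without replicate 1 or without replicate 2 limma called 0 genes of the whole table above 1 TPM, where at an unadjusted p under 0.05 it had 4646 and 4452 genes, 8 and 7 of the S100 genes among them. Without replicate 3 it called 5 of the 10. Of calls below 1 TPM, made for 3859 genes, 0 were left in limma when mitochondrially encoded genes were removed and TPM rescaled (6246 genes at an unadjusted p under 0.05) or when genes were set against 0.5 TPM (842 unadjusted), and this holds for each gene named below 1 TPM here.

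**Figure D1:**
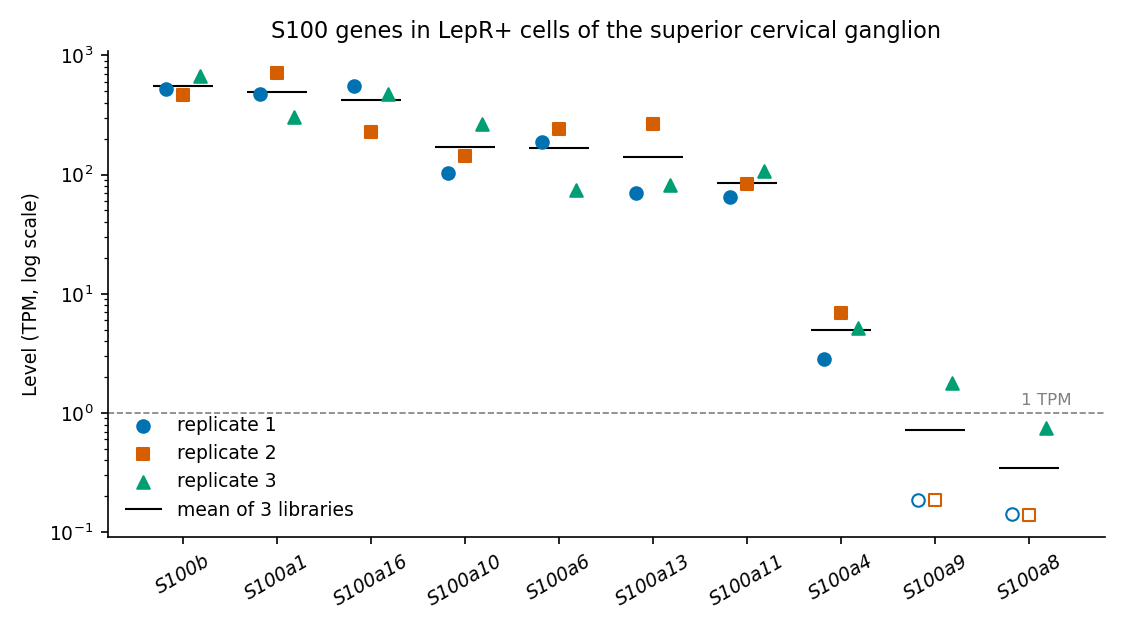
TPM of each S100 gene on a log axis, ordered by mean, with 1 symbol per library (replicates 1, 2 and 3) and a bar at the mean of the 3. Open symbols are libraries without a read, drawn at the deposited value. S100b, S100a1 and S100a16 sit at 228 TPM or more in every library, and the symbols of S100a11 (lowest 64.5 TPM) lie above those of S100a4 (highest 6.86 TPM).

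S100b, the glial member, which is also secreted, had 524, 462 and 668 TPM in replicates 1, 2 and 3, from 1987, 1753 and 2373 reads. The 3 libraries differed by no more than 1.45-fold, the narrowest range among the 10 genes. Its mean of 551 ± 106 TPM (SD, n = 3) ranked 147 of 27402 genes, and its log2(TPM + 1) exceeded the value at 1 TPM by 8.09 ± 0.20 (SE; limma, adjusted p = 0.00337). Among 10128 genes averaging 5 TPM or more, the SD of log2(TPM + 1) was smaller than that of S100b (0.27) for 4.52%, and its median was 1.72.

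S100a1, best known from heart and skeletal muscle, where it binds the calcium release channel and the calcium pump of the reticulum, had 471, 713 and 307 TPM from 835, 1267 and 509 reads. Replicate 2 was the highest and replicate 3 the lowest. The mean was 497 ± 205 TPM (SD, n = 3; rank 176), an excess over 1 TPM of 7.88 in log2(TPM + 1) (limma, adjusted p = 0.00374). Of 8 striated muscle and heart markers 0 were above 1 TPM by limma (0 at an unadjusted p under 0.05), and they summed to 68.3, 2.00 and 1.35 TPM. Actc1, Ckm and Myl2 had no read in any library, and Acta1 had 1, 0 and 2 reads. Myh6, a heart myosin that shares long stretches of sequence with Myh7, made up nearly all of the first sum, at 67.7 TPM in replicate 1, against 1.55 and 0.214 TPM in replicates 2 and 3.

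S100a16, a member with a broad tissue range, had 554, 228 and 473 TPM from 2289, 942 and 1832 reads. Here replicate 2 was the lowest, whereas it was the highest for S100a1, and replicate 1 exceeded replicate 3 for both genes. The mean was 418 ± 170.0 TPM (SD, n = 3; rank 234), an excess over 1 TPM of 7.61 in log2(TPM + 1) (limma, adjusted p = 0.00416). The 3 highest genes had no fixed order: S100a16 led in replicate 1, S100a1 in replicate 2 and S100b in replicate 3.

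S100a10 is the member that stays in the open shape without calcium and binds annexin A2 (Anxa2). It had 102, 143 and 266 TPM from 317, 442 and 771 reads, highest in replicate 3 (mean 170.3 ± 85.2 TPM, SD, n = 3; limma, adjusted p = 0.00549). Anxa2 had 191, 297 and 498 TPM, and the ratio of S100a10 to Anxa2 TPM was 0.537, 0.481 and 0.534 in the 3 libraries. The ratio was 0.517 ± 0.032 (SD, n = 3) while the level of S100a10 alone differed by 2.60-fold. The pair was compared because the proteins are known partners, with the values already seen, and 3 libraries are too few for a correlation. No ratio to a partner was taken for the other S100 genes.

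S100a6, also called calcyclin, had 188, 241 and 74.0 TPM from 655, 843 and 242 reads, lowest in replicate 3 (mean 168 ± 85.3 TPM, SD, n = 3; limma, adjusted p = 0.00803). Its partner Cacybp, the calcyclin binding protein, had 130, 88.5 and 30.5 TPM and was likewise lowest in replicate 3. Cacybp was highest in replicate 1, however, and S100a6 in replicate 2. S100a13, which aids the release of the growth factor FGF1 from cells, had 70.2, 266 and 82.0 TPM from 128, 486 and 140 reads. Replicate 2 stood apart as the highest, and S100a13 had the widest range of the 8 genes with a read in every library, at 3.79-fold (mean 139 ± 109.7 TPM, SD, n = 3; limma, adjusted p = 0.0120). Its divergent neighbour S100a1 was also highest in replicate 2, and S100a1 exceeded S100a13 by 6.71-, 2.69- and 3.74-fold in replicates 1, 2 and 3.

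S100a11, a partner of annexin A1, had 64.5, 83.5 and 108 TPM from 84, 109 and 132 reads (mean 85.4 ± 21.9 TPM, SD, n = 3; limma, adjusted p = 0.00387). The level was lower than that of S100a10 in every library, by 1.59-, 1.71- and 2.46-fold. Of 5 processed pseudogenes with at least 90% identity to it over 100 or more bases, Gm7665 had 0, 2 and 2 reads and the other 4 had none. Reads that fit both a gene and its copy may have been left out of either count, so the level of S100a11 is uncertain. No transcript of another gene was as close to any of the other members except for the overlap of S100a4 given next.

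S100a4, a marker of fibroblasts and macrophages that binds non-muscle myosin, was low, at 2.85, 6.86 and 5.19 TPM from 4, 10 and 7 reads (mean 4.96 ± 2.01 TPM, SD, n = 3). The 95% exact Poisson intervals of these reads ran from 0.730 to 6.86, from 3.21 to 12.3 and from 2.01 to 10.3 TPM and overlapped, so no difference between libraries could be seen at this depth. Such intervals cover counting error only. The call above 1 TPM was lost with a filter at a mean of 0.5 TPM, with a mean-variance trend, without mitochondrially encoded genes and without any 1 replicate (limma, adjusted p from 0.0518 to 0.369). Of the 584 exon bases of S100a4, 302 (51.7%) are also exon of Gm42674, which overlaps it on the same strand and had no read in any library. The sources used here do not say whether reads in shared bases were counted for either gene, so the level of S100a4 may be understated. The 8 fibroblast markers were uneven in the same libraries. Dcn, Lum, Col3a1, Col1a2 and Col1a1 were above 1 TPM (limma), with means running from 3791 TPM for Dcn down to 10.5 TPM for Col1a1. Pdgfra had 31.2, 2.66 and 7.06 TPM and was called neither way, Dpt was below with 0, 1 and 0 reads, and Pi16 had no read. Myh9, the heavy chain of the non-muscle myosin that S100a4 binds, had 1.25, 21.3 and 42.5 TPM and was not called above 1 TPM (limma, adjusted p = 0.136).

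S100a8 and S100a9, the subunits of calprotectin, were almost unread. S100a8 had 0, 0 and 1 read and S100a9 had 0, 0 and 2 reads, all in replicate 3. In each of replicates 1 and 2 the count of 0 allows up to 1.69 TPM of S100a8 and up to 2.25 TPM of S100a9 when 3 reads are taken as the limit. The upper ends of the 95% exact Poisson intervals, as used for S100a4, are higher, at 2.08 TPM for S100a8 and 2.76 to 2.77 TPM for S100a9. Neither was called on either side of 1 TPM (limma, adjusted p = 0.130 for S100a8 and 0.511 for S100a9). Of 12 neutrophil markers 6 had no read in any library, Ly6g, Mpo, Elane, Camp, Ngp and Mmp9, and the list summed to 1.62, 1.78 and 2.78 TPM with 0 members called above 1 TPM (0 also at an unadjusted p under 0.05). Monocyte and macrophage markers were uneven. They summed to 13.4, 207 and 152 TPM, also with 0 of 12 called above 1 TPM (0 unadjusted), and Ccr2 and Itgam, both monocyte genes, were read in replicate 3 alone, at 26.5 and 24.6 TPM. Cd68, a macrophage gene, was read in replicate 2 alone (61.0 TPM), and Fcer1g had 1, 194 and 0 reads. Plac8 was also highest in replicate 2 (34.4 TPM), while Tyrobp, Lyz2 and Ptprc were highest in replicate 3 (75.3, 13.7 and 11.1 TPM). The list sum was highest in replicate 2, where S100a8 and S100a9 had no read. The part of such cells in the 3 reads of S100a8 and S100a9 was not tested. Ly6c2 had no read in any library.

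Of the 9 pairs of neighbours in the order of means, 7 had ranges over the 3 libraries that overlapped. The steps without overlap were those between S100a11 and S100a4, by 4.16 ± 0.49 in log2 TPM (SD, n = 3), and between S100a4 and S100a9. Both involve S100a4, whose level may be understated because of the exon bases it shares with Gm42674. An exact test of a pair over 3 libraries cannot go below p = 0.25, so no pair was tested. Within a library, a gene of the middle set exceeded one of the upper set in replicate 2 alone, where S100a16 had 228 TPM and S100a13 and S100a6 had 266 and 241 TPM.

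Relative to its mean, the total over the 10 genes varied less than each of the genes. Whether it varied less than a sum of unrelated genes was not tested. The total was 1977, 2143 and 1986 TPM (mean 2035 ± 93.2, SD, n = 3), which is 0.198%, 0.214% and 0.199% of each library. S100b, S100a1 and S100a16 together made 78.4%, 65.5% and 72.9% of it, and the middle set of 4 made 21.5%, 34.2% and 26.7%. S100b held 26.5%, 21.5% and 33.6% of the total, S100a1 23.8%, 33.3% and 15.4%, and S100a16 28.0%, 10.6% and 23.8%. S100a4, S100a8 and S100a9 together held 0.161% to 0.390%.

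**Figure D2:**
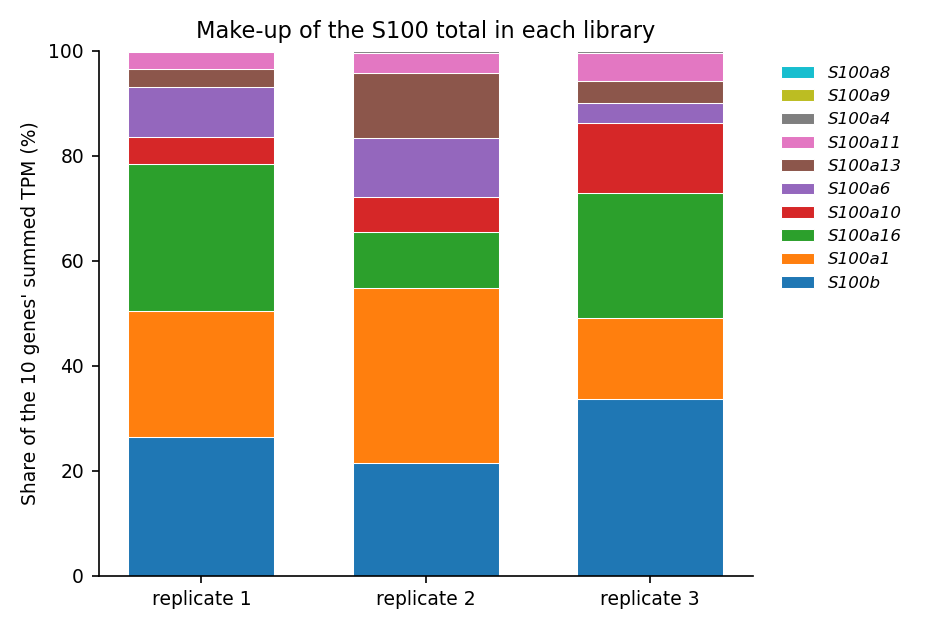
Share of the summed TPM of the 10 S100 genes held by each gene, as a stacked bar per library (percent, replicates 1, 2 and 3). Replicate 2 has the smallest S100a16 share (10.6%) and the largest S100a1 and S100a13 shares (33.3% and 12.4%), and S100a4, S100a8 and S100a9 are too small to see.

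Of 8 further S100 genes listed, 7 were in the table. None of them was called above 1 TPM by limma, nor at an unadjusted p under 0.05, and S100a5, S100g and S100z had no read in any library. S100a7a, whose human relatives are made by inflamed skin, had 3.48, 42.9 and 2.81 TPM from 12, 151 and 9 reads. S100a3, a gene of the hair cuticle, had 0, 167 and 0 reads (11.5 TPM in replicate 2), and S100a14, an epithelial member, had 0, 5 and 0 reads. All 3 were thus highest in replicate 2. The gene model of S100a3 (chromosome 3, 90560578 to 90602702) has 5660 exon bases, of which 144 are shared with Gm42674 and 117 with the snRNA Gm23464. S100a2 had 1 read, in replicate 3. Of 8 keratinocyte markers 1, Krt10, was above 1 TPM, and they summed to 17.1 to 26.4 TPM over the libraries. With 7 of them tested, 1 above lies near the 16.3% of all genes tested. In replicate 2 Krt5 had 3 reads and Krt14 and Ivl had 0, while Trp63, a transcription factor of basal epithelium, had 7, 246 and 1 reads in replicates 1, 2 and 3. The part of epithelial cells in these values was not tested.

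On chromosome 3 the S100 genes flank a stretch of genes with few or no reads. S100a1, S100a13, S100a16, S100a4 and S100a6 come first, with S100a6 beginning 102 kb from the lowest base of S100a1, S100a8 and S100a9 follow, and S100a11 and S100a10 stand 2.82 Mb beyond S100a9. The interval from S100a1 to S100a10 spans 3.05 Mb and holds 75 protein-coding genes with a value, namely the 9 S100 genes described, 5 other S100 genes and 61 genes of other kinds. These 61 are mostly genes of the epidermal differentiation complex, which encodes proteins of the skin barrier such as loricrin (Lor), filaggrin (Flg) and the Sprr and Lce families. Of them 45 had no read in any library and 16 had at least 1. No gene among the 16 exceeded 10 reads in a library or 3.08 TPM, and limma called 0 above 1 TPM (0 unadjusted) and 4 below. The shares over all genes tested were 16.3% above and 14.1% below. Lor had 1, 0 and 0 reads and Flg had 0, 0 and 3 reads.

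**Figure D3:**
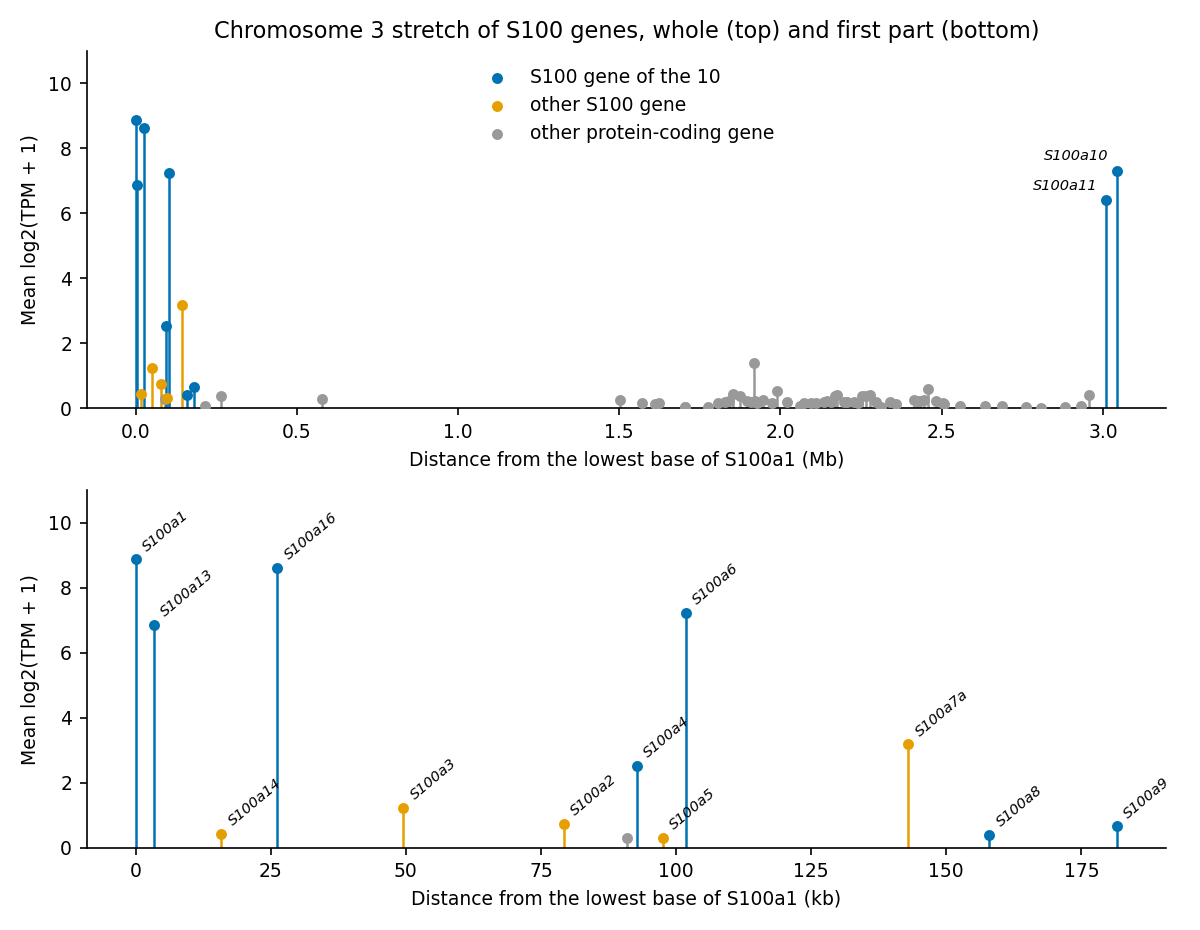
Mean log2(TPM + 1) over the 3 libraries of each protein-coding gene on chromosome 3 from S100a1 to S100a10, against distance from the lowest base of S100a1, for the whole stretch in Mb (top) and its first part in kb (bottom). Blue marks the 9 S100 genes described, orange the other S100 genes and grey the other 61 genes. The blue lines reach 8.88 at the left end (S100a1) and 7.31 at the right end (S100a10), and no grey point passes 1.4.

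Most receptors for secreted S100 proteins were above 1 TPM. Of 7 receptor genes 6 were above 1 TPM and 1 below (limma), where 16.3% and 14.1% of all genes tested were. The median of the 7 was 5.96 in log2(TPM + 1) against 0.89 over all genes tested. The basigin gene Bsg and the neuroplastin gene Nptn, receptors of S100a8 and S100a9 proteins, had 493, 701 and 776 TPM and 115, 175 and 173 TPM. Cd36, Mcam and Alcam had means of 85.8, 76.4 and 60.5 TPM. Cd36 and Mcam are also genes of capillary and mural cells, whose lists summed to 299 to 407 TPM and 59.0 to 445 TPM. Tlr4 was low, at 3.47, 7.61 and 3.40 TPM (limma, adjusted p = 0.0489), and its call was lost under 3 alternatives that kept all libraries (limma, adjusted p from 0.0588 to 0.389). Ager, the gene of RAGE, had 0, 0 and 1 read and was below 1 TPM (limma, adjusted p = 0.0486).

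Of 12 annexin genes 5 were above 1 TPM, 4 were called neither way and 3 had no read. The median was 5.72 in log2(TPM + 1) over the 9 tested. The share above 1 TPM over all genes tested was 16.3%. Anxa5 led with 618, 1021 and 1170 TPM, and Anxa2 followed with the values given above. Anxa1, the partner of S100a11, had 90.4, 174 and 182 TPM. All 3 were lowest in replicate 1, as S100a10 and S100a11 were. Anxa7 and Anxa4 had means of 119 and 57.8 TPM. Anxa3 had 51.4, 102 and 6.68 TPM and Anxa6, which binds several S100 proteins, had 19.3, 56.7 and 0.321 TPM (limma, adjusted p = 0.0524 and 0.220). Anxa10, Anxa11 and Anxa13 had no read in any library, and for Anxa11 3 reads would be 0.283 to 0.303 TPM.

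Of 22 intracellular targets of S100 proteins, 12 were above 1 TPM, 2 below, 7 neither and 1, Il1a, had no read (limma). Over all genes tested the shares were 16.3% above and 14.1% below, so the 2 below do not stand out. Vim, the intermediate filament vimentin, had 779, 733 and 555 TPM, and the actin capping genes Capza2, Capza1 and Capzb had means of 344, 146 and 114 TPM. Ahnak, the giant scaffold bound by S100a10 with annexin A2, had 221, 397 and 199 TPM. Sugt1, a target of S100a6, had 164, 71.1 and 74.2 TPM. Trp53, whose product binds S100b and S100a4, had 71.8 TPM in replicate 1 against 1.28 and 0.336 TPM in replicates 2 and 3, and Ppp5c had 0.780, 2.90 and 15.8 TPM. The targets that S100a1 binds in muscle were divided. The calcium pump gene Atp2a2 had 32.9, 13.6 and 120 TPM and was above 1 TPM close to the threshold (limma, adjusted p = 0.0485). The release channel gene Ryr2 was below at 0.139, 0.0984 and 0.105 TPM, and Ryr1 was called neither way. Fgf1, the cargo of S100a13, had 2.13, 2.71 and 0.921 TPM (limma, adjusted p = 0.248).

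Of 12 genes tied to S100a10 through plasmin or channels, 2 were above 1 TPM, 3 below, 6 neither and 1 had no read (limma), and the median over the 11 tested was 0.38 in log2(TPM + 1), below that of all genes tested. Over all genes tested 16.3% were above and 14.1% below, so the 2 of 11 above lie near the background. Hltf, a chromatin remodeller that S100a10 with annexin A2 binds, had 65.0, 42.2 and 162 TPM, and Plat, tissue plasminogen activator, had 29.5, 79.7 and 16.1 TPM. The plasminogen receptor gene Plgrkt had 4.46, 31.0 and 21.1 TPM (limma, adjusted p = 0.0510). Of the channels and receptors that S100a10 carries to the membrane, Trpv5, Htr1b and Asic1 were below 1 TPM, Scn10a had no read, and Kcnk3 had 25.9 TPM in replicate 1 against 0.516 TPM and 0 reads in the others.

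Of 32 other genes with EF-hands, 18 were above 1 TPM, 0 below and 12 neither (limma), and Ncs1 and Vsnl1 had no read. At an unadjusted p under 0.05, 2 were below. By adjusted p, 16.3% of all genes tested were above and 14.1% below (limma). The median over the 30 tested was 5.79 in log2(TPM + 1), against 7.05 for the 10 S100 genes. Calm2, a calmodulin gene, had 1723, 1910 and 3724 TPM and exceeded the total of the 10 S100 genes in replicate 3. The matrix genes Sparcl1 and Sparc had means of 1402 and 738 TPM, and Pdcd6, Calu and Cetn2 had means of 316, 269 and 262 TPM. Rcn3 had 9.40, 199 and 284 TPM, Hpcal1 had 139 TPM in replicate 2 and under 1 TPM elsewhere, and Cib1 had 96.1, 102 and 0.408 TPM. The neuronal and muscle genes Calb1, Calb2 and Pvalb had at most 7 reads in a library.

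**Figure D4:**
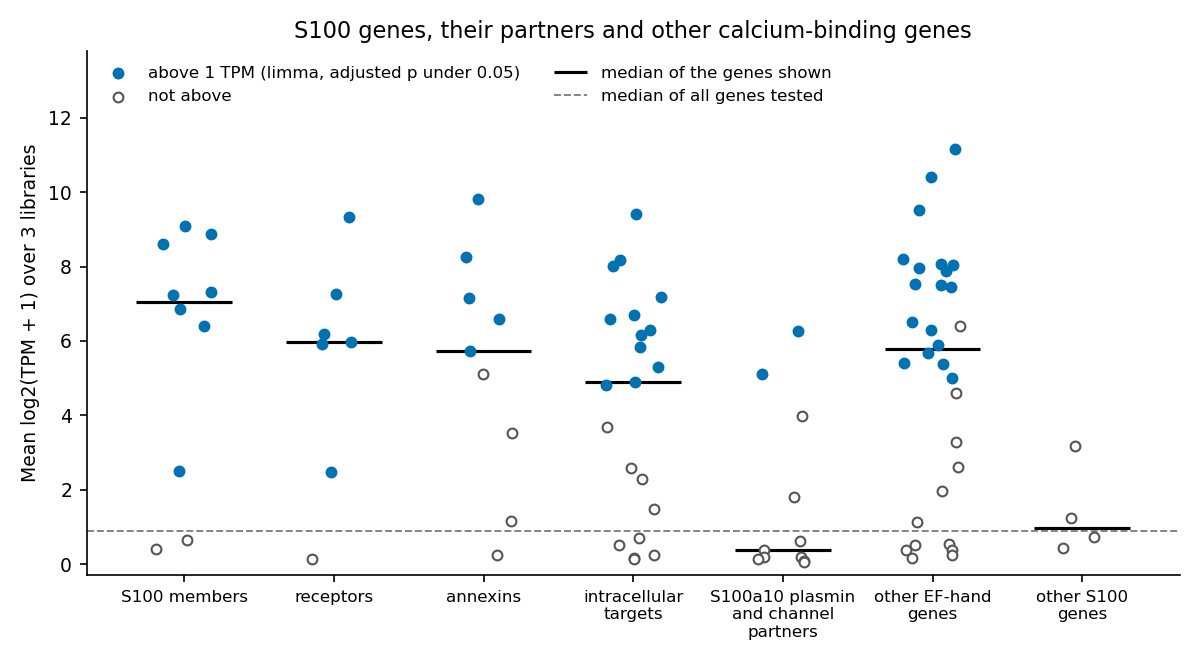
Mean log2(TPM + 1) over the 3 libraries of the 10 S100 genes, their receptors, annexins, intracellular targets, the plasmin and channel partners of S100a10, other EF-hand genes and other S100 genes, 1 point per gene with a read (horizontal scatter has no meaning). Filled points were above 1 TPM in limma's test, black bars are medians and the dashed line is the median of all genes tested (0.89). The bar of the 10 S100 genes stands at 7.05 and that of the S100a10 plasmin and channel partners at 0.38.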

How the data were processed

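RNA of sorted cells was copied and amplified with an adapted Smart-Seq2 method, per the labels' protocols, and STAR and featureCounts were used with mm10 (GRCm38), per the submitters' processing notes. The sources used here do not give versions, annotation release, strand setting or filters. Values were deposited as log2 TPM, and TPM sum to 1000000 in each library. The deposited values hold 0.25 read added to each gene, as seen from genes without a read. With exon lengths from GENCODE M21 (same build), whole reads (within 0.02) were recovered for 49791 of 52550 genes, which hold 88.6% to 89.3% of TPM. For an exon length of 1 kb, 1 read equals 0.391, 0.391 and 0.418 TPM.

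The mean of log2(TPM + 1) was compared with that of a gene at 1 TPM by limma 3.58.1 (R 4.3.3, two-sided) over the 27402 genes with a read in any library, with Benjamini-Hochberg adjustment and a threshold of 0.05. The scale understates differences of low genes. Alternatives were a pseudocount of 0.25, other filters, a level of 0.5 TPM, a variance trend, TPM without mitochondrially encoded genes and leaving out each replicate. Copies of transcripts were sought with BLAST 2.17.0. Members and gene lists were chosen with earlier results of these data known. All members are described. From each list the named genes are the highest called above (up to 6), those over 10-fold apart between libraries (up to 3) and those without a read (up to 3), and others were named after their values were seen, for their tie to a member.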

Additional observations from a re-analysis of the deposited data

How the results depend on the processing

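The count of S100 genes above 1 TPM was 7 or 8 of 10 under every alternative that kept all 3 libraries, and the gene lost was S100a4 in each case. Leaving out 1 library at a time gave 0 to 5 of the 10, 0 to 2435 genes of the whole table above and 0 to 4898 below, and from the lists 0 to 2 annexins, 0 to 3 receptors, 0 to 6 intracellular targets, 0 to 1 plasmin and channel partners and 0 to 11 other EF-hand genes. Fewer samples enter those fits. Without replicate 1 and without replicate 2, 7715 and 8059 genes were below 1 TPM at an unadjusted p under 0.05, where limma's adjusted count was 0. The count of all genes below 1 TPM, 3859, was 0 with a mean of at least 0.5 TPM required, at a tested level of 0.5 TPM and without mitochondrially encoded genes, 29850 with no filter and 9657 with a mean-variance trend. Genes without a read enter under no filter, and at a mean of at least 0.5 TPM, which leaves out low genes, 0 were below at an unadjusted p under 0.05 too. Against 0.5 TPM a low gene lies less far below the tested level, by construction. For the removal of mitochondrially encoded genes and the trend the cause was not tested. The level of S100a9 turned to 0.0755 (log2 scale) when set against 0.5 TPM, where it was -0.34 against 1 TPM, by construction of a lower level. The summed TPM of the 10 S100 genes was 2559 without mitochondrially encoded genes, again by construction, against 2035. S100a8 was below 1 TPM with a trend (limma, adjusted p = 0.0217) and, with S100a9, without replicate 3, the library that holds their reads (limma, adjusted p = 0.0357 and 0.0360). No paired analysis was possible because the 3 libraries form 1 group. Depth limits S100a4, S100a8 and S100a9, which had at most 10 reads in a library. For S100a4 the exon bases shared with Gm42674 are a further limit, and the 2 cannot be told apart here.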

Other observations

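Of 8 chondrocyte markers 1 was above 1 TPM (limma): Cnmd had 200.1, 234 and 23.9 TPM, while Acan had 1, 1 and 2 reads and Col2a1 none, Hapln1 had 117, 1.01 and 29.0 TPM, and the list summed to 319, 242 and 54.5 TPM. Of 8 melanocyte markers 0 were above (0 at an unadjusted p under 0.05), and they summed to 10.8, 0.628 and 181 TPM. Dct, an enzyme of melanin synthesis, had 100.4 TPM in replicate 3 and no read elsewhere, Mitf had 10.4, 0.142 and 79.7 TPM, and Pmel had no read. Of 8 adipocyte markers 1, Fabp4, was above, and they summed to 23.0 to 49.1 TPM. In the chondrocyte and adipocyte lists 7 markers each were tested, so 1 above lies near the 16.3% of all genes tested. Of 8 lymphocyte markers 0 were above (0 unadjusted), with a sum of at most 1.63 TPM. S100b was highest in replicate 3, the library with Dct, and S100a1 was highest in replicate 2 and lowest in replicate 3, as Cnmd was. Dct and Cnmd were picked with the values seen, and other markers of their lists differed. Hapln1 and the chondrocyte sum were highest in replicate 1. Mitf was highest in replicate 3, but Tyrp1 had 0, 1 and 0 reads. The part of such cells in the S100 levels was not tested.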
